A study of Mus musculus with 4 samples.

Results

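The genes described here encode the proteins of the cytosolic ribosome in mouse sensory ganglion cells. They were chosen by symbol: names of the form Rpl or Rps followed by a number, Rplp0 to Rplp2, and Rpsa, without the ribosomal protein S6 kinases and without the 250 entries whose symbol ends in -ps followed by a number (the form used for pseudogenes). The rule took 89 of the 41388 genes in the deposited tables. Of these, 83 have introns: 48 encode proteins of the large subunit, 3 encode the stalk proteins Rplp0, Rplp1 and Rplp2, and 32 encode proteins of the small subunit. The other 6 (Rpl10l, Rpl6l, Rps12l1, Rps3a2, Rps3a3 and Rps4l) are intron-less copies and were kept apart. Fau and Rack1, which also encode ribosomal proteins, do not carry such symbols and are given with the related lists.

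Each library holds RNA of cells sorted for EGFP from dorsal root ganglia of spinal levels T11 to S1 of 1 animal. The ganglia hold the cell bodies of sensory neurons, and Ret, the receptor for ligands of the GDNF family, marks several neuron classes among them. There were 4 libraries: female A from 40 pooled ganglia, and male A, male B and male C from 20 each. All were labelled postnatal day 2 and strain C57BL/6. The genotype label, Tg(Ret-EGFP)SJ/, reads as a transgene, whereas the design text describes animals heterozygous for EGFP inserted at the Ret locus, so that 1 Ret allele would be altered in every library and no library without the reporter was compared. In the pool descriptions, female A and male A are from a P2 mouse (the P2-mouse pair), whereas the animal of male B and of male C is called an embryo (the embryo pair). The sources used here do not say whether that stands for age, batch or wording. The treatment labels also differ between the pairs, so that the pool description is not the only label that sets them apart. Where 4 values follow each other without names, they are in the order female A, male A, male B, male C.

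Gene counts per library lay between 17388493 and 28066448, so that 3 counts were worth 0.107 to 0.173 CPM (a gene's count relative to the total of its library). No molecular identifiers were used, and such floors cover counting error only. Sensory neuron markers were present in every library, and their summed level over 8 genes was 7431, 7048, 12770 and 11922 CPM. Schwann cell markers (9 genes) summed to 4774, 7642, 2984 and 2997 CPM, and fibroblast markers (6 genes) to 1374, 1515, 295 and 318 CPM. None of the markers of 9 cell types that were looked up was at 0 in all libraries. In the edgeR test between the pairs, described with the comparison of the members, 6 of 8 sensory neuron markers were lower in the P2-mouse pair. There, 8 of 9 Schwann cell and 5 of 6 fibroblast markers were higher. Over all genes tested, 22.3% were called higher and 20.0% lower. Of the Ret neuron markers 3 of 4 were lower. Of the erythroid markers 3 of 5 were higher, as were 2 of 5 tested endothelial and mural ones. Satellite glia markers were split, 2 higher and 2 lower of 5. Of 4 proliferating cell markers 2 were higher and 1 lower, and the 1 macrophage marker tested was not called. The sums of neuron, Schwann cell and fibroblast markers move with every difference between the pairs given below, and their part in it was not tested. In sorted bulk samples such as these, fewer cells of a type and less RNA per cell cannot be told apart.

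A cytosolic ribosome is built from a small subunit, which reads the mRNA, and a large subunit, which joins amino acids, and each protein is normally present in a fixed number of copies per ribosome. The mRNAs of ribosomal proteins are among the most abundant of most cells. They usually start with a C followed by a run of pyrimidines (C or T), the terminal oligopyrimidine or TOP tract, through which the kinase mTOR and the RNA-binding protein Larp1 set their translation. The ribosomal protein genes have also left many processed pseudogenes in mammalian genomes, so that a short read can match several places.

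The annotated starts are shown first because the tract is the sequence feature these genes are known to share. Of the members, 64 had a start in the RefSeq promoter table for GRCm38.p6. The tract was searched on the gene's strand as a C at the annotated start followed by C or T through base 5. It was found at a start of 13 of the 64 members (20.3%), against 813 of the 27025 genes of the table (3.01%). A run of at least 8 pyrimidines that covered the start was found in 17 members (26.6%), against 4.59% of all genes. The letters CCGGAAG, a form of the core of ETS factor motifs, stood on either strand of the 300-base window in 26 members (40.6%), against 9.93% of all genes. The table's starts need not be the starts used in these cells, and a missing match says only that these letters are not at that place.

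The sequences below run from 15 bases before the annotated start through the first 15 bases of the mRNA (5′ to 3′ on the gene's strand), with the pyrimidine run over the start in capitals. The first 3 have a tract, and Rpl28 and Rplp2 are among the genes with the largest falls between the pairs, Rps10 among those with the largest rises. Rpl37 and Rpl36a, which also changed, are shown because the table places no pyrimidine at their start.
Rpl28 (chr7:4792950-4792979, GRCm38.p6, plus strand): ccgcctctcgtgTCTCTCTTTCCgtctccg
Rplp2 (chr7:141447636-141447665, GRCm38.p6, plus strand): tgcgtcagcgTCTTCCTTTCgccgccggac
Rps10 (chr17:27635230-27635259, GRCm38.p6, minus strand): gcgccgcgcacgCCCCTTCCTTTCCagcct
Rpl37 (chr15:5116598-5116627, GRCm38.p6, plus strand): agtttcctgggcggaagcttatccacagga
Rpl36a (chrX:134585639-134585668, GRCm38.p6, plus strand): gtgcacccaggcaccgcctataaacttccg
Among matched members, the tract stood in 2 of the 11 that were higher in the P2-mouse pair, 5 of the 20 that were lower and 6 of the 30 that were not called. The 3 classes were not tested against each other.

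The 83 genes with introns took 0.718%, 0.736%, 0.783% and 0.773% of all gene counts. Both libraries of the embryo pair were above both of the P2-mouse pair. With 2 libraries against 2, an exact permutation test cannot reach 0.05 and none was run. The large-subunit genes summed to 3580, 3742, 3807 and 3776 CPM, and the small-subunit genes to 3081, 3106, 3362 and 3278 CPM. The 3 stalk genes summed to 516, 509, 659 and 676 CPM. The 6 intron-less copies summed to 147.8, 150.04, 94.3 and 104.7 CPM, a difference carried by Rps3a3 alone (67.7, 70.6, 0.485 and 0.321 CPM), since Rps4l was lower in the P2-mouse pair and the other 4 had at most 4 counts per library.

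Proteins that occur together in 1 particle came from genes whose measured levels differed widely. On the scale of RPKM (CPM per kilobase of the gene's exon length in the files), the mean over the 4 libraries ran from 0.0397 to 643 among the 83 genes, with a median of 20.4. The order of the genes was nearly the same in every library. Pearson's correlation of log2 RPKM over the 83 genes was 0.996 between female A and male A, 0.994 between male B and male C, and 0.977 to 0.983 across the pairs, where the libraries share each gene's length and sequence.

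**Figure D1:**
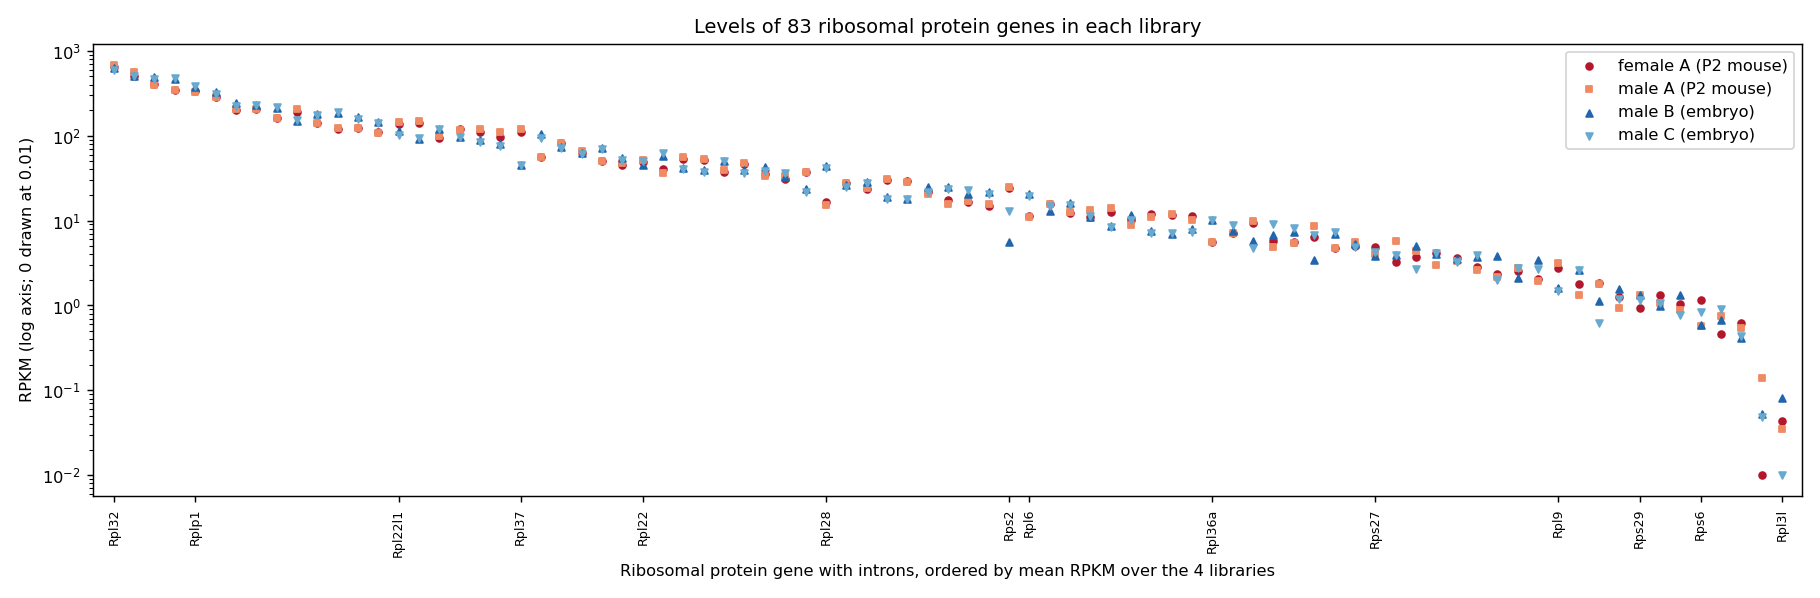
RPKM (log axis) of the 83 ribosomal protein genes with introns in each of the 4 libraries, ordered by their mean, with some genes named on the x axis; a value of 0 is drawn at 0.01. The 4 symbols of a gene lie close together, from Rpl32 with a mean of 643 RPKM down to Rpl3l with a mean of 0.0397 RPKM.

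The highest level was that of Rpl32, a large-subunit protein, at 653, 689, 630.3 and 599.8 RPKM. Rpl4, a large-subunit protein that reaches into the exit tunnel of the nascent chain, followed at 507, 555, 505 and 508 RPKM. Neither gene differed between the pairs beyond its error, with log2 fold changes of 0.01 (SE 0.086) and −0.05 (SE 0.085). Rpl8, Rplp1 and Rpl14 of the large subunit and stalk had means of 408, 357 and 219.7 RPKM, and Rps14 of the small subunit had a mean of 218 RPKM. These 4 genes were all lower in the P2-mouse pair, by log2 fold changes from −0.56 (Rpl8) to −0.27 (Rps14), and none of the 4 was called with offsets for exon length and GC content, which are described with the comparison of the pairs. With the offsets Rps14 turned to 0.24 and Rpl14 to 0.02, and both calls were lost without female A (−0.26 and −0.27) or male A (−0.28 and −0.34). Neighbours in this order overlapped in some cases: Rpl8 (343 to 478 RPKM) overlapped with Rplp1 (331 to 382), and Rpl14 (201 to 242) with Rps14 (206 to 231). The choice of length matters for the order, since 6 of the 8 genes with the highest mean RPKM stayed among the 8 highest when CPM was divided by the length of the principal GENCODE transcript, and 4 did when CPM was used without length.

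At the low end, Rpl3l, the striated muscle paralog of Rpl3, had 2, 1, 3 and 0 counts. Rpl39l, a paralog of Rpl39 known from testis, had 0, 2, 1 and 1 counts. Both were at or under the floor of 3 counts in every library. Other genes among the 8 lowest encode proteins found in ribosomes throughout the body, such as Rpl23a, Rps6, Rpl24, Rpl12 and Rps29. Rps6, the substrate of the S6 kinases, was measured at 1.82, 0.92, 0.926 and 1.33 CPM (51, 16, 21 and 33 counts). Rps29 was measured at 0.641, 0.92, 0.926 and 0.803 CPM. The values of these 5 genes overlapped between the pairs.

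Sequence shared with other annotated genes was measured next. For this, each member's principal transcript was cut into all words of 50 bases, and the share of words that also occur in a transcript of another annotated gene, on either strand, was counted. In the 12 genes with under 25% of shared words the median of the mean level was 91.4 CPM, in the 24 genes with 25 to 50% it was 79.5 CPM, in the 25 genes with 50 to 75% it was 32.7 CPM, and in the 22 genes above 75% it was 5.91 CPM. Per kilobase the medians were 70.0, 78.7, 18.3 and 4.72 RPKM. Across the 83 genes, Spearman's rho between mean RPKM and the share was −0.49, and it was −0.60 without the 2 paralogs of at most 3 counts per library. These are descriptions over genes, which are not independent replicates.

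Single genes varied widely. Rps3 shared 3.0% of its words at a mean of 711 CPM, and Rpl4 shared 16.5% at 738 CPM. Rps27 and Rps6 shared 98.6% and 84.6% of their words and stood at 1.08 and 1.25 CPM. Exceptions lay on both sides: Rpl35 shared 95.1% of its words at a mean of 46.5 CPM, and Rps29 shared 35.8% at 0.823 CPM. Exons of Rpl35, Rpl23a and Rpl24 also overlapped with other genes, over 66.2%, 62.3% and 47.0% of their length, and their counts are uncertain for that reason too. The sources used here do not say how reads with several matches were counted. A low value of a gene with a high share is therefore a count of the reads assigned to it, and a level between genes cannot be read from it. A fold change between libraries compares the same gene, and over the 81 tested genes with introns it had a rho of −0.02 with the share. Because fold changes can be moved in either direction, this rho cannot show whether shared sequence affected those of single genes. The fold change of Rps3a1, given below, depended on whether its copy was counted with it.

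**Figure D2:**
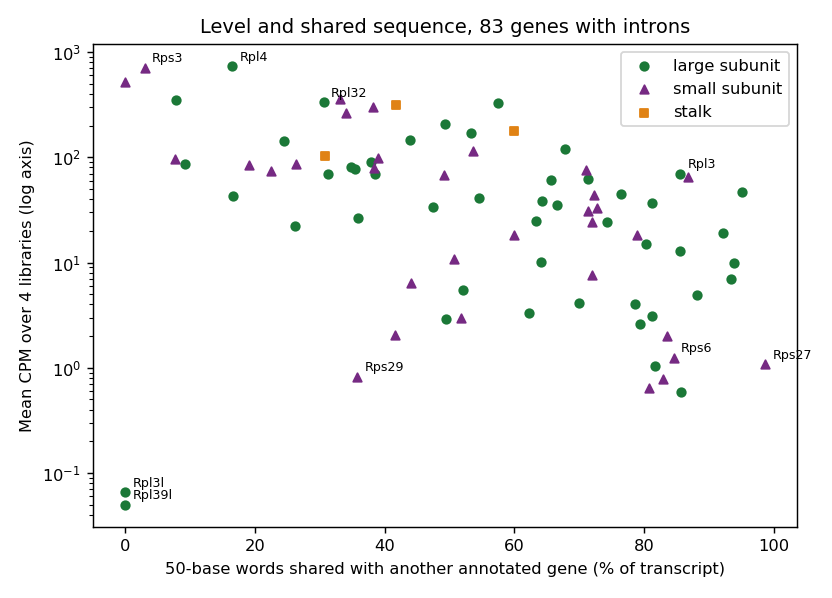
Mean CPM over the 4 libraries (log axis) against the percentage of 50-base words of a gene's principal transcript that occur in another annotated gene, for the 83 genes with introns by subunit. Genes sharing over 75% had a median of 5.91 CPM and genes sharing under 25% a median of 91.4 CPM; Rps29, Rpl3l and Rpl39l lie low at small shares.

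The test between the pairs covered 83 of the 89 members. The edgeR quasi-likelihood test found 13 of them (15.7%) higher and 30 (36.1%) lower in libraries of the P2-mouse pair at an adjusted p under 0.05, and 40 were not called. Of all 15568 genes tested, 22.3% were called higher and 20.0% lower, 42.3% in all. The members' median log2 fold change was −0.23, against 0.02 for all genes tested. The distance between the 2 medians was −0.25 under each of 4 scalings. With library totals alone, however, 20 members were called higher and 20 lower, and 6589 of all 15568 genes were called. That scaling moved the median of all genes to 0.13. Without overlap between the pairs, 27 members lay above and 34 below, against 42.5% and 30.8% of all genes. The p-values measure the spread between libraries within each pair, 2 against 2, each from 1 animal by its label. In the P2-mouse pair that spread also holds the difference between a female and a male, and between pools of 40 and 20 ganglia. Without female A the members' median was −0.18 against −0.01 for all genes, and without male A it was −0.19 against 0.01. These fits leave the P2-mouse pair 1 library, assumed to vary like the others. They called fewer genes in all than the fit of 4 libraries, so that a call lost there is not particular to the members.

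The base composition of the transcripts moved with the calls. The 29 lower genes with introns had a median GC content of 54.0% and the 12 higher ones 48.6%, against 50.3% in the 40 that were not called. Over all tested genes, the fold change between the pairs had a rho of −0.46 with GC content, and over the 81 members with introns of −0.29. With smooth offsets per library for exon length and GC content, 15 members were higher and 10 lower, against 12.4% and 20.0% of all genes, and the members' median was 0.01 against −0.07. A lower level of the group as a whole thus did not hold in that fit. Of the 83 tested members, 9 kept a higher and 8 a lower call with both fits. Under every setting run 10 kept their call: Rps3a3, Rpl37 and Rps19 were higher, and Rpl28, Rpl36a, Rpl6, Rps3a1, Rplp2, Rps15 and Rps3 were lower. The same counts over all genes are not given here. With its copy Rps3a3 summed, as described below, Rps3a1 did not keep its fall (0.23, edgeR adjusted p = 0.0955).

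**Figure D3:**
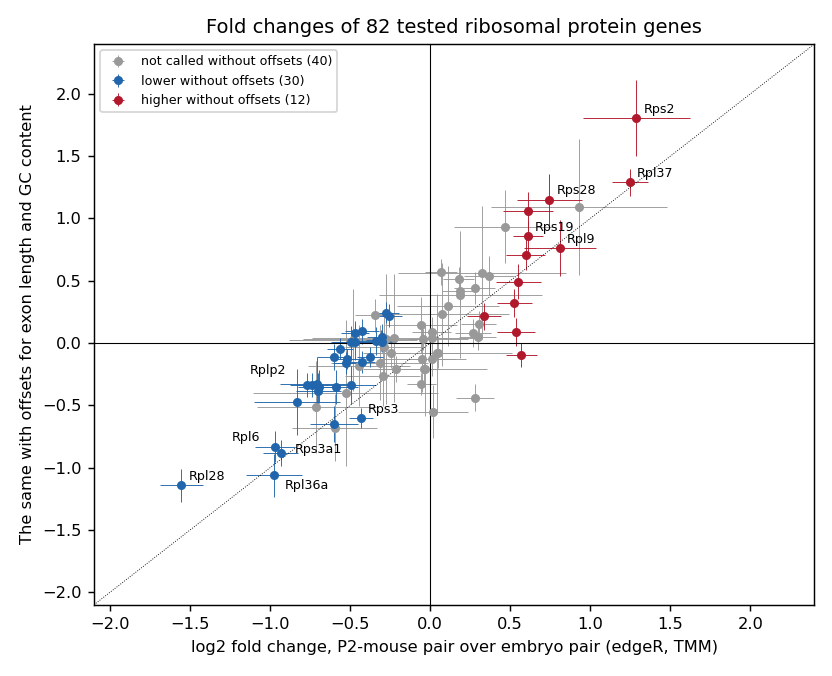
Log2 fold change of the P2-mouse pair over the embryo pair for 82 tested members (Rps3a3, at 7.30, lies outside the axes), without offsets on the x axis and with offsets for exon length and GC content on the y axis; bars are standard errors and the dotted line marks equal values. Most of the 30 genes lower without offsets lie above the dotted line and nearer to 0 on the y axis, while Rpl28 and Rpl36a lie below −1 on that axis and Rpl37 and Rps2 above 1.

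In the large subunit, 6 of 46 tested genes with introns were higher and 16 lower, with a median of −0.26, where 22.3% of all genes were higher and 20.0% lower. With the offsets 8 were higher and 6 lower (median −0.08), where 12.4% and 20.0% of all genes were. With library totals alone 8 were higher and 12 lower. The median was −0.26 without female A and −0.24 without male A. Rpl28 (chr7:4792874-4794562, plus strand), a large-subunit protein of eukaryotes, had the largest fall. It was measured at 18.7 and 17.3 CPM in the P2-mouse pair, and at 50.6 and 47.0 CPM in the embryo pair. The pairs did not overlap, and the log2 fold change was −1.55 (SE 0.13, edgeR adjusted p = 0.000203), or −1.14 with the offsets. Rpl6 fell from 50.6 and 48.0 CPM in the embryo pair to 27.9 and 26.6 CPM, a log2 fold change of −0.97 (SE 0.12, edgeR adjusted p = 0.000805). The X-linked Rpl36a stood at 9.19 and 9.20 CPM in the P2-mouse pair and at 16.8 and 16.6 CPM in the embryo pair. Its log2 fold change was −0.98 (SE 0.17, edgeR adjusted p = 0.00343), with 85.5% of its words shared.

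Rpl27 and Rpl18 were also among the 8 largest falls, at log2 fold changes of −0.71 and −0.70. Neither call held with the offsets (−0.33 and −0.38), without female A (−0.82 and −0.69) or without male A (−0.61 and −0.69), and Rpl27 also missed the threshold without male C (−0.50). Among the genes that rose, Rpl37 (chr15:5116613-5119140, plus strand) was the clearest in the large subunit. It was measured at 96.1 and 103.9 CPM in the P2-mouse pair and at 39.1 and 38.8 CPM in the embryo pair. Its log2 fold change was 1.25 (SE 0.11, edgeR adjusted p = 0.000241) and 1.29 with the offsets. Rpl37 and Rpl28 thus differed between the pairs by similar factors in opposite directions, although their proteins belong to the same subunit.

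Rpl9 and the X-linked Rpl39 rose by 0.81 and 0.60 on the log2 scale. Rpl39, a small protein at the exit tunnel, stood at 53.4 and 53.3 CPM against 34.1 and 31.1 CPM, and its call was lost without male A (0.59). Rpl9 stood at 8.52 and 9.66 CPM against 4.98 and 4.58 CPM. Its call was lost without female A (0.92), male A (0.71) or male C (0.70), and it shared 93.3% of its words.

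The 3 stalk genes encode the acidic proteins of the flexible arm that recruits elongation factors, and all 3 were lower in the P2-mouse pair (20.0% over all genes). Rplp2 was measured at 83.6, 75.2, 119 and 131 CPM, with a log2 fold change of −0.77 (SE 0.11, edgeR adjusted p = 0.00105). Rplp0, which anchors the arm, was measured at 266, 270.2, 353 and 356 CPM, with a log2 fold change of −0.52 (SE 0.082, edgeR adjusted p = 0.00192). Rplp1 was measured at 167, 164, 187 and 189 CPM, with a log2 fold change of −0.30 (SE 0.085, edgeR adjusted p = 0.0246). No stalk gene overlapped between the pairs, where 30.8% of all genes lay below without overlap. With the offsets the fold change of Rplp2 was −0.33 and kept its call, that of Rplp0 was −0.13 and did not, and that of Rplp1 turned to 0.01. Rplp1 also lost its call with library totals alone (−0.19), without female A (−0.30) and without male A (−0.29).

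In the small subunit, 6 of 32 genes were higher and 10 lower (22.3% and 20.0% over all genes), with a median of 0.03. With the offsets 6 were higher and 3 lower, where 12.4% and 20.0% of all genes were. With library totals alone 11 were higher and 5 lower. The median was 0.0074 without female A and −0.00057 without male A. Rps15, at the head of the subunit, stood at 76.3 and 77.7 CPM in the P2-mouse pair and at 117 and 120.2 CPM in the embryo pair, with a log2 fold change of −0.74 (SE 0.097, edgeR adjusted p = 0.000857) and −0.33 with the offsets. Rps3, a protein of the mRNA entry channel, fell by 0.43, and by 0.60 with the offsets. Rps19, a protein needed for the maturation of the small subunit and mutated in Diamond-Blackfan anaemia, ran the other way. It stood at 140.1 and 145 CPM against 88.2 and 84.3 CPM, with a log2 fold change of 0.61 (SE 0.095, edgeR adjusted p = 0.0018).

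Rps2 had the largest rise among genes with introns, but with an uneven embryo pair. It was measured at 44.9 and 45.4 CPM in the P2-mouse pair, and at 10.1 CPM in male B but 23.9 in male C. Its log2 fold change was 1.29 (SE 0.34, edgeR adjusted p = 0.0174), with transcripts of 71 annotated pseudogenes sharing words with it. Rps28 stood at 13.5 and 14.5 CPM against 8.47 and 6.99 CPM, and Rps10 at 22.3 and 23.0 CPM against 13.4 and 14.02 CPM. Their log2 fold changes were 0.74 and 0.61. The calls of Rps2, Rps28 and Rps10 were lost without female A (1.31, 0.81 and 0.65) and without male A (1.27, 0.69 and 0.58). Rps28 also missed the threshold without male C (0.57), and Rps2 with DESeq2 (1.285). Rpsa, the laminin receptor precursor, was not called, at 6.81, 6.27, 6.62 and 5.98 CPM.

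**Figure D4:**
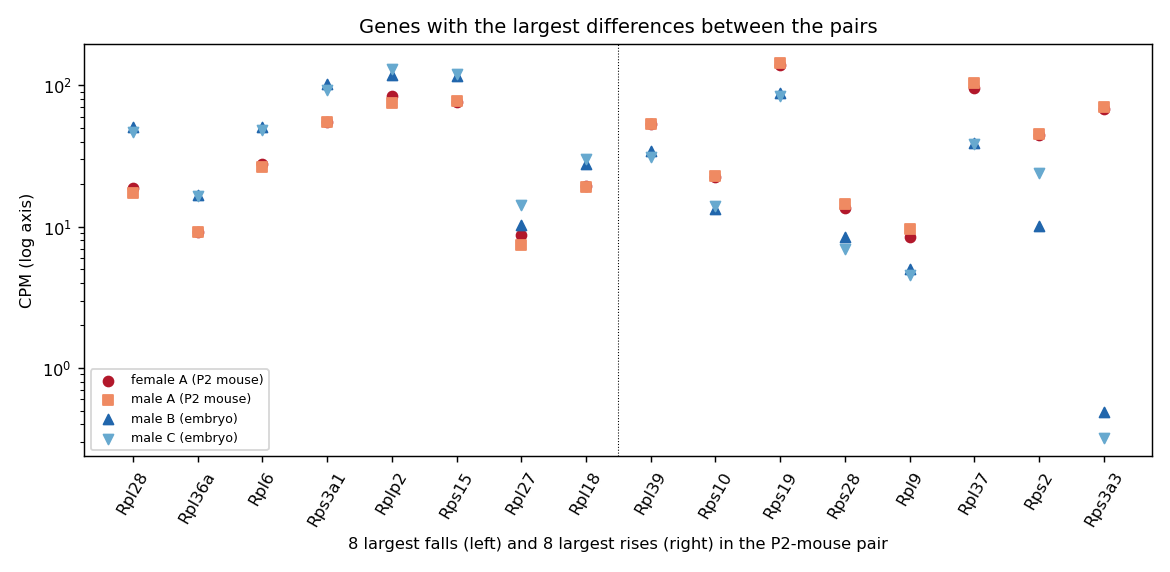
CPM (log axis) in each library of the 8 members with the largest falls (left) and the 8 with the largest rises (right) in the P2-mouse pair among called members with a mean of at least 5 CPM. Circles and squares (P2-mouse pair) lie below the triangles (embryo pair) on the left and above them on the right; Rps3a3 drops from 67.7 and 70.6 CPM to 0.485 and 0.321 CPM.

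The largest difference of any member was that of an intron-less copy. Rps3a3 (chr13:108670603-108671397, plus strand, 1 exon) had 1899 counts in female A and 1227 in male A, and 11 in male B and 8 in male C. This was 67.7 and 70.6 CPM against 0.485 and 0.321 CPM, a log2 fold change of 7.30 (SE 0.22, edgeR adjusted p = 2.38e-05). It lies between exons of Pde4d, a phosphodiesterase gene on the same strand, which stood at 18.2, 20.0, 18.0 and 16.7 CPM. Of all genes tested, 24 had a log2 fold change above 5. Only Rps3a3 and Xist among them had a mean of at least 5 CPM, and Xist is the RNA of the inactive X chromosome of females.

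Rps3a1 (chr3:86137940-86142702, minus strand, 6 exons), which encodes a small-subunit protein, moved in the opposite direction. It was measured at 55.2 and 54.9 CPM in the P2-mouse pair and at 101.6 and 92.8 CPM in the other, a log2 fold change of −0.93 (SE 0.11, edgeR adjusted p = 0.000528). The 795 bases of Rps3a3 aligned without gaps to the Rps3a1 mRNA with 98.87% identity, 9 mismatches and a longest identical run of 215 bases. Rps3a3 is annotated as a processed pseudogene. The stretch below lies in the coding part of Rps3a1 (bases 334 to 393 of its mRNA in GENCODE M21). It shows how few bases tell the copies apart, with the bases that differ in capitals.
Rps3a1: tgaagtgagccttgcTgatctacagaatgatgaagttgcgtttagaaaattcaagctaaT
Rps3a3: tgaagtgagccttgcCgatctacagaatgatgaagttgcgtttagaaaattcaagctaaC
Within these 60 bases, 2 differ, and the bases between them are the same in both genes.

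The sum of both genes was 122.8, 125.4, 102.1 and 93.1 CPM. Rps3a3 took 55.1% and 56.3% of it in the P2-mouse pair and 0.475% and 0.345% in the embryo pair. With the counts of both summed, the log2 fold change was 0.23 (SE 0.099, edgeR adjusted p = 0.0955), so that the fall of Rps3a1 was not seen in the sum. Whether the reads of Rps3a3 came from that copy or were assigned to it from Rps3a1 mRNA was not tested, and the level of either gene alone is uncertain.

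**Figure D5:**
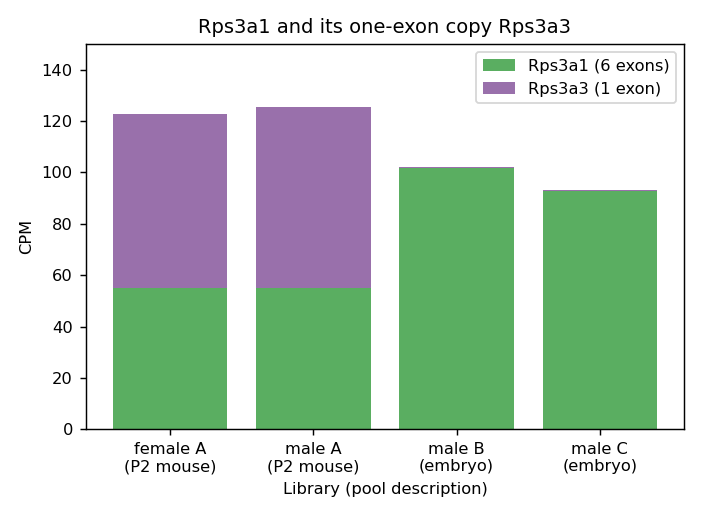
Stacked CPM of Rps3a1 (6 exons) and its intron-less copy Rps3a3 (1 exon) in the 4 libraries. Rps3a3 makes up 55.1% and 56.3% of the sum in female A and male A and under 1% in male B and male C, while the sums run from 93.1 to 125.4 CPM.

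Rps4l (chr6:148354656-148355598, plus strand) was the other intron-less copy with a mean above 1 CPM. It stood at 80.0, 79.2, 93.7 and 104.2 CPM, above the X-linked Rps4x at 45.4, 45.3, 42.9 and 40.3 CPM. Per kilobase the levels were 84.8, 84.0, 99.3 and 110.5 RPKM for Rps4l and 27.8, 27.7, 26.3 and 24.7 RPKM for Rps4x. The measured value of the intron-less copy was thus the higher in every library on both scales. The transcripts were 79.7% identical over the aligned part. Rps4l shared 14.9% of its words with another gene, whereas Rps4x shared 72.2% of its words with other genes. With so high a share for Rps4x, the order of the true levels cannot be read from these values. Whether the order reflects how reads with several matches were counted was not tested. Rps4l was lower in the P2-mouse pair (log2 fold change −0.43, SE 0.11, edgeR adjusted p = 0.0138), which turned to 0.10 with the offsets and lost its call without female A (−0.42) or male A (−0.43). Rps4x was not called (0.01, SE 0.12).

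Some ribosomal proteins have a paralog, and in several pairs both genes were measured. Rpl22 stood at 144, 151, 132 and 148 CPM and Rpl22l1 at 67.6, 71.4, 55.9 and 49.9 CPM. Per kilobase their order depended on the length used. It was 49.5, 52.0, 45.4 and 50.9 RPKM for Rpl22 and 138, 146, 114 and 102 RPKM for Rpl22l1 over the exon lengths in the files (2911 and 489 bases), but Rpl22 was the higher in every library over the principal transcripts (474 and 552 bases). Rps27l stood at 96.6, 110.2, 79.4 and 76.3 RPKM against 4.89, 4.06, 3.81 and 4.25 RPKM for Rps27, whose words were shared to 98.6%. None of these 4 genes was called between the library pairs, although with the offsets Rpl22l1 turned from 0.28 to a called fall of −0.44. Rpl7 stood at 60.3 to 65.5 RPKM and Rpl7l1 at 30.8 to 36.2 RPKM. Rpl36al (14.9, 15.7, 21.8 and 20.8 RPKM) was above Rpl36a (5.55, 5.56, 10.2 and 10.0 RPKM), and both were lower in the P2-mouse pair.

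The muscle and germ cell paralogs were near 0. Rpl3l, Rpl39l and the intron-less Rpl10l, a paralog of the X-linked Rpl10 known from the male germ line, had at most 4 counts in any library. The other intron-less copies Rpl6l, Rps12l1 and Rps3a2 had at most 2. Rpl10 itself stood at 23.2, 20.8, 16.3 and 15.2 CPM and was not called (log2 fold change 0.37, SE 0.16), nor was Rpl26 (0.19, SE 0.11), for whose paralog Rpl26l1 no row was found. With the offsets both were called higher, at 0.54 and 0.42, and Rpl7 was called lower, at −0.33. The call of Rpl36al (−0.59, SE 0.14, edgeR adjusted p = 0.012) was lost with the offsets (−0.35), without female A (−0.54) and without male A (−0.63).

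Female A was set against the 3 males in a second test, in which the pool description crosses the sexes only in part, since both other males came from the embryo pair. With 1 library in an arm, this test can miss even large differences, and a missing call does not show that the sexes were alike. None of the 83 tested members was called, and the smallest adjusted p was 0.951 (edgeR). None had an unadjusted p under 0.05, against 0.772% of the 16708 genes tested, of which 0 were called. DESeq2 and limma-voom also called 0 members. The members' median log2 fold change, female over males, was −0.17, against 0.00 for all genes tested, and −0.03 once the pool description entered the fit. Female A lay above the range of the males for 12 members and below it for 17, against 26.7% and 18.3% of all genes. Without male A the test is the same as that between the pairs, so that sex and pool cannot be told apart there.

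Within the P2-mouse pair, female A and male A could be set side by side without a test. Over the 66 members with a mean of at least 5 CPM the ratio of female A to male A ran from 0.743 (Rpl13) to 1.36 (Rps27a), with a median of 0.982. The 4 X-linked genes lay within that range. Rpl36a stood at 9.19 against 9.20 CPM, Rpl39 at 53.4 against 53.3 CPM, Rps4x at 45.4 against 45.3 CPM and Rpl10 at 23.2 against 20.8 CPM.

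Rack1 and Fau, which lie outside the symbol rule, were also lower in the P2-mouse pair. Rack1, a scaffold on the small subunit, stood at 354 and 359 CPM in the P2-mouse pair and at 492 and 479 CPM in the embryo pair (log2 fold change −0.56, SE 0.080, edgeR adjusted p = 0.00129), a call kept in every setting run. Fau fell from 6.09 and 5.74 to 2.82 and 2.47 CPM (−1.27), a call lost with the offsets (−0.77) and without male A (−1.19).

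Other mRNAs known to carry a TOP tract moved in both directions. Of 15 tested, 6 were higher and 5 lower (22.3% and 20.0% over all genes). The median of 0.26 was 0.14 with the offsets, 0.14 without male B and 0.07 without male C. The elongation factor genes were among the lower ones: Eef1g stood at 55.7 and 60.3 CPM against 99.7 and 100.6 CPM (−0.90), Eef1d fell by 0.66 and Eef2 by 0.56, the last not called with the offsets (−0.19). Eif3a, a subunit of an initiation factor, stood at 242 and 258 CPM against 102.1 and 95.8 CPM (1.22). Pabpc1, the poly(A)-binding protein, and the histone chaperone Nap1l1 rose by 1.01 and 0.95.

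In the mTOR pathway, 3 of 12 tested genes were higher and 3 lower, shares near those over all genes (22.3% and 20.0%), and 1 was higher and 2 lower with the offsets. Mtor itself was not called, at 54.1, 41.1, 40.0 and 45.9 CPM. Rps6kb1, the S6 kinase, and Deptor, an inhibitor of mTOR, were higher (1.14 and 0.96), and with the offsets neither was called (0.11 and 0.22). Eif4ebp2 was higher by 0.72 at an edgeR adjusted p of 0.0487, and its call was lost without any 1 of the 4 libraries (0.69 to 0.73). Mlst8 and Rptor, partners of mTOR, fell by 0.78 and 0.75, Rptor without a call when male A was left out (−0.69). Larp1 fell by 0.35, a call lost with library totals alone (−0.24), with the offsets (−0.30), without female A (−0.41) and without male A (−0.29).

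Of 23 ribosome biogenesis genes, 4 were higher and 8 lower (22.3% and 20.0% over all genes), and 1 and 6 with the offsets. The nucleolar proteins Ncl and Nop58 were higher, by 1.06 and 1.00, but with the offsets neither was called (0.18 and 0.12), whereas Nop14 rose by 0.90, and by 0.83 with the offsets. Nop2, an RNA methyltransferase, fell by 0.98, and by 0.61 with the offsets. Grwd1 and Bop1 fell by 0.87 and 0.75, calls that were lost with the offsets (−0.40 and −0.32) and without male A (−0.74 and −0.58), and that of Bop1 also without female A (−0.94). Of 7 listed snoRNA host genes, 5 were found and 4 tested. Of these 4, 3 were called higher and none lower (22.3% and 20.0% over all genes). With the offsets 2 were called higher, and with sex as a term 1 of 5 tested. Gas5, whose transcript is itself known to carry a TOP tract, stood at 395.3 and 395.2 CPM against 209 and 181 CPM (0.91, and 1.03 with the offsets). Snhg12 and Snhg5 rose by 0.77 and 0.46, and both calls were lost without female A (0.74 and 0.49) or male A (0.81 and 0.44), that of Snhg5 also with the offsets (0.25).

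The proteins of the mitochondrial ribosome are encoded by other genes. Of 75 tested, 48 were lower and 2 higher (20.0% and 22.3% over all genes), with a median log2 fold change of −0.46, and 36 were lower and 3 higher with the offsets (median −0.34). The median lay between −0.52 and −0.34 under the 4 scalings. The median was −0.42 without female A and −0.48 without male A. Mrps18b stood at 13.2 and 14.3 CPM against 32.4 and 27.7 CPM (−1.24), and Mrpl4 and Mrps18a fell by 1.19 and 1.11. Mrps34, higher by 2.51, had 6.66 and 6.27 CPM against 0.132 and 1.93 CPM, and Mrps24 was higher by 0.73. Both of those calls were lost without female A (2.48 and 0.54), without male A (2.55 and 0.90) and with DESeq2 (2.53 and 0.72). That of Mrps24 was also lost without male C (0.69).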

How the data were processed

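RNA of sorted cells (10 ng per library, per the labels' protocols) was copied and amplified by SMARTer Ultra Low Input chemistry, and libraries had 12 cycles of PCR. The authors deposited counts of reads per gene, which the submitters' processing notes give as featureCounts 1.4.5 (Subread) on GRCm38.p2. CPM values as deposited equal the counts over the library's gene total, and the deposited RPKM values equal CPM per kilobase of exon length, as recomputed here. The aligner, the annotation release, strandedness and the handling of multiply matching reads were not given in the sources used here. Symbols came from GENCODE M21, which matched 40254 of 41388 gene IDs.

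Libraries were grouped by title (sex) and by the pool size label (P2 mouse or embryo). Counts were tested with edgeR 4.0.16 in R 4.3.3 (quasi-likelihood F test, TMM scaling, filterByExpr, Benjamini-Hochberg over all genes tested, threshold 0.05), over all 4 libraries. The SE of a log2 fold change was taken as its absolute value divided by √F. The script was tested on simulated data. Alternatives were 3 other scalings, no filter, a minimum mean of 5 CPM, DESeq2 1.42.0, limma-voom (limma 3.58.1), the other factor as a term, offsets from mgcv 1.9.3 and each library left out. Summing Rps3a1 with Rps3a3 and dividing by the length of the principal transcript were added after the data were seen.

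The genes named are the 8 highest and 8 lowest by RPKM with introns, paralog pairs, stalk genes, Rpsa, Rps6, 4 X-linked genes, the 8 largest called rises and 8 largest called falls among members averaging 5 CPM or more, intron-less copies above 1 CPM, and up to 3 called genes per direction of each related list. Rps3, Rpl13, Rps27a, Rpl35 and Mtor were named after their values were seen, as were Xist and Pde4d. The members, lists and rule were chosen with earlier results of these data known. Rpl9 and Rpl36al, listed with 1 merged exon interval, have spliced transcripts in GENCODE and were kept with the genes with introns. Some genes that the rule takes in are left out of the text. Promoter windows came from RefSeq (GRCm38.p6), and no genome sequence was used.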

Additional observations from a re-analysis of the deposited data

How the results depend on the processing

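The median log2 fold change of the members between the pairs (−0.23) was −0.25 with relative log expression factors, −0.30 with upper-quartile factors, −0.11 with library totals alone, −0.16 with no filter, −0.21 at a mean of at least 5 CPM, −0.25 with DESeq2, −0.19 with sex as a term, −0.10 with an offset for exon length and 0.0098 with offsets for exon length and GC content, and −0.31 to −0.15 with a library left out. The count of higher members (13) was 20 with library totals alone and 6 with sex as a term, where 13.2% of all genes were called higher. The count of lower members (30) was 13 with sex as a term, 17 with the length offset, 10 with both offsets and 12 to 31 with a library left out. Between the sexes, the median (−0.17) was −0.029 once the pool description entered the fit and −0.040 with both offsets. It was −0.19 to −0.12 with a male left out, where 0 to 4 members were called higher and 0 to 12 lower. The share of counts was 0.732%, 0.751%, 0.792% and 0.784% (female A, male A, male B, male C) with the intron-less copies added, and 0.772%, 0.787%, 0.853% and 0.840% without the 10 most abundant genes of each library. With both offsets Rplp1 turned to 0.0097, Rpl14 to 0.022, Rps4l to 0.10 and Rps14 to 0.24, and Rps3a1 to 0.23 with its copy summed. The cause was not tested.

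No paired analysis was possible because the sexes and the pool descriptions share only the replicate letter A. Depth limits the members under about 1 CPM, where the SE of a log2 fold change was near 0.5 (Rps6 0.51, Rps29 0.52).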

Other observations

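Entries with pseudogene-type symbols (-ps) held few counts beside their parents. The 250 entries summed to 75.8, 85.4, 73.1 and 60.8 CPM (female A, male A, male B, male C), against 7176, 7357, 7827 and 7731 CPM for the 83 genes with introns. The 726 annotated pseudogenes that share at least 1 word of 50 bases with a member summed to 184, 193, 167 and 146 CPM. Rps3a3 alone, at 67.7 and 70.6 CPM, was thus close to the sum of all 250 entries in female A and male A.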
